A study of Mus musculus with 12 samples.

Results

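The set described here holds 9 mouse genes of MHC class II antigen presentation and costimulation, out of 12393 genes measured in the series. They are H2-Aa, H2-Ab1, H2-Ea and H2-Eb1, which encode the peptide-binding chains, H2-DMa and Cd74 of the loading machinery, the transactivator Ciita, and the costimulatory ligands Cd80 and Cd86. Members were every probe set annotated to exactly 1 of these symbols, which gave 19 of 20380 single-gene probe sets, with at least 1 for each of the 9 genes. No probe set shared between several genes held a member (0 of 691). H2-Ea and H2-Aa were among the largest falls with estradiol when the set was proposed, so the members' values in the estradiol comparison are given as a description, with no p-value. Their calls by the fit over the whole array are counted only beside the share of all probe sets, and nothing is drawn from them. The pregnancy comparison and the comparison of lavage with cell line were tested.

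The study's question is the action of estradiol on macrophages of the mouse. Total RNA was hybridised to 12 Affymetrix arrays in 4 groups of 3. RAW264.7, a macrophage-like line made from a tumour of a male BALB/c mouse, was left unstimulated (the design text says vehicle) or grown overnight in estradiol at 1 ug/mL. Macrophages from bronchoalveolar lavage (BAL), cells washed from the airspaces, came from control and from pregnant mice and went straight to RNA extraction. All 4 groups carry the same label text on medium (RPMI with serum) and on estradiol, and the design text limits estradiol to RAW264.7 cells. The vehicle, strain, age and sex of the mice, stage of pregnancy, any sorting of the lavage cells and any pooling of animals are not given in the sources used here. RAW264.7 is a single transformed line, and nothing in the labels says whether replicates were separate cultures or animals, so p-values cover only how these samples spread, which may be technical.

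Values are log2(intensity + 1) of the deposited RMA intensities. An array has no counts, and the number of arrays limits the precision. Median intensity lay between 369 and 393 on the 12 arrays. A probe set is called dim here when it lay below the 40th percentile of its array, a cut between 6.98 and 7.14. Of 8 macrophage and monocyte markers, 8 lay above that cut in RAW264.7 cells and 6 in lavage. Csf1r, the receptor for macrophage colony-stimulating factor, averaged 13.65 in unstimulated RAW264.7 and 13.29 in control lavage, and Cd68 averaged 13.75 and 13.83. Itgam and Cx3cr1 averaged 8.79 and 10.51 in RAW264.7 and were dim in lavage, at 5.61 and 6.21. Of 8 alveolar macrophage markers, 8 lay above the cut in lavage and 2, Itgax (11.69) and Mrc1 (7.85), in unstimulated RAW264.7. Marco and Pparg averaged 6.68 and 6.35 in unstimulated RAW264.7 and 11.43 and 12.58 in control lavage. Estradiol replicate 2 had a larger 3′ to 5′ difference than the other RAW264.7 arrays, 0.74 against 0.39 to 0.48 for actin. Without that array the estradiol difference of each of the 19 member probe sets kept its direction.

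MHC class II molecules are heterodimers of an alpha and a beta chain that show peptides from ingested material to CD4+ T cells. H2-Aa and H2-Ab1 pair as I-A, and H2-Ea and H2-Eb1 pair as I-E. Cd74, the invariant chain, fills the groove during assembly, and H2-DM, of which H2-DMa is the alpha chain, exchanges its last fragment for a peptide in the endosome. Ciita binds no DNA itself and is recruited by RFX, CREB and NF-Y factors on the X and Y boxes of class II promoters. Cd80 and Cd86 engage CD28 and CTLA-4 on T cells. Alveolar macrophages are known for modest class II levels beside lung dendritic cells.

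RefSeq start-site windows (250 bases before the start and 50 after, build GRCm38.p6, printed 5′ to 3′ on the gene's strand) were held for 4 member genes. A window is printed for each of these, H2-Aa, H2-Eb1, H2-DMa and Cd80, to show which carry the box letters. Capitals mark the X core AGNNACNNATG, where N is any base, and the Y core ATTGG, searched on both strands; CCAAT in capitals is a Y core on the opposite strand. The windows lie at chr17:34287774-34288073 (minus strand) for H2-Aa, chr17:34305617-34305916 (plus) for H2-Eb1, chr17:34125268-34125567 (plus) for the downstream of 2 H2-DMa starts, and chr16:38458683-38458982 (plus) for Cd80.
H2-Aa: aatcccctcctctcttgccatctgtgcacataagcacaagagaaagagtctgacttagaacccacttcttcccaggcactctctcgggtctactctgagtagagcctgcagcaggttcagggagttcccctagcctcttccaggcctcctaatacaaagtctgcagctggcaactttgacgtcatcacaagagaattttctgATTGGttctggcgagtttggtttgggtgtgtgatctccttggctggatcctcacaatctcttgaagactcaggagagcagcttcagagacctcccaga
H2-Eb1: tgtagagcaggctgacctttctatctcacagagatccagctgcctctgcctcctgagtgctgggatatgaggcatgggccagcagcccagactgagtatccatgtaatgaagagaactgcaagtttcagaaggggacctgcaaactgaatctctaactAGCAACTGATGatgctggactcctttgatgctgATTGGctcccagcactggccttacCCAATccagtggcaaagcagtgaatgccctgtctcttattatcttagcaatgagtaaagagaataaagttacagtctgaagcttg
H2-DMa: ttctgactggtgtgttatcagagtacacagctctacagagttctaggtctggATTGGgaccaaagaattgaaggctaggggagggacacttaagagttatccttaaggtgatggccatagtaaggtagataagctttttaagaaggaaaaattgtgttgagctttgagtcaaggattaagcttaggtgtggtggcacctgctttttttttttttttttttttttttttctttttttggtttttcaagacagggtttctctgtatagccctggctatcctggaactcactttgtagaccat
Cd80: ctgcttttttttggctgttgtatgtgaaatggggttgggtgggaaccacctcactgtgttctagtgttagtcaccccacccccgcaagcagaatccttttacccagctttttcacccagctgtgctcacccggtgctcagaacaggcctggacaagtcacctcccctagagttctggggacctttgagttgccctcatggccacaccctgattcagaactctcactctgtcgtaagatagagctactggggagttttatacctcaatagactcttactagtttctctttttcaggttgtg
H2-Eb1 held an X core at base -92 from the start site followed by a Y core at base -59, and a Y core of the opposite strand at base -35. H2-Aa held a Y core at base -48 and no match to the X core letters as searched. The downstream H2-DMa window held a Y core at base -198, and the upstream one, at chr17:34122582-34122881, and the Cd80 window held neither. Among all 32851 windows, 3.09% held the X core, 37.4% the Y core, and 23 (0.07%) an X core with a Y core 10 to 30 bases on. Those 23 belonged to 22 genes, of which 4 were class II family genes, H2-DMb1, H2-Ob, H2-Eb1 and H2-Eb2. A match is a description of letters, and no binding was measured. Boxes outside the listed windows would be missed, and a link of the letters to the estradiol change was not tested. H2-Ab1, H2-Aa, H2-Eb1, H2-Eb2 and H2-Ea are neighbours in that order on chromosome 17 of the RefSeq table, which lists H2-Ea as a transcribed pseudogene in its reference strain. Ciita, Cd80 and Cd86 lie on chromosome 16.

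In RAW264.7 cells the peptide-binding chains were lower with estradiol, the loading chains and Cd80 were higher, and Ciita and Cd86 were dim in both groups. H2-Ea, the I-E alpha chain, measured 7.42, 7.49 and 7.76 on the unstimulated arrays and 5.97, 5.58 and 5.33 on the estradiol arrays by its brightest probe set. Every estradiol array was below every unstimulated one, and all 3 were dim. The difference was -1.93 ± 0.17 (log2, SE, n = 3 per group). Where a group is dim, as here, the log2 difference is given as measured and no fold is printed. A further H2-Ea probe set was lower by -1.41 ± 0.09, from 7.11, 7.26 and 7.38 to 5.89, 5.91 and 5.72. The remaining H2-Ea probe set, designed on the sequence M26296, was dim on all 12 arrays, between 3.46 and 3.72, and differed by 0.08 ± 0.07.

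H2-Aa, the I-A alpha chain, measured 8.28, 8.39 and 8.28 without and 7.06, 6.80 and 6.83 with estradiol. The groups did not overlap, and the difference was -1.42 ± 0.08. Its other probe set gave -1.53 ± 0.12, with 8.24, 8.24 and 8.20 against 6.88, 6.41 and 6.80. On both probe sets the estradiol arrays lay below the 40th percentile, whereas the unstimulated arrays lay above it.

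H2-Ab1, the I-A beta chain, measured 8.43, 8.44 and 8.47 without and 7.41, 7.60 and 7.49 with estradiol on its brightest probe set. That is -0.95 ± 0.06, or 1.93-fold lower, and all 3 estradiol arrays stayed above the 40th percentile. The other H2-Ab1 probe sets differed by -1.17 ± 0.06 and -1.11 ± 0.11, and both were dim with estradiol. H2-Eb1, the I-E beta chain, moved least of the 4, from 8.29, 8.34 and 8.43 to 7.54, 7.91 and 7.94. Its difference was -0.55 ± 0.11, or 1.47-fold lower, and its groups did not overlap either.

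The loading chains lay on the other side of 0. H2-DMa measured 8.61, 8.55 and 8.67 without and 9.12, 9.23 and 9.17 with estradiol, a difference of 0.56 ± 0.06 (1.48-fold). Cd74 measured 12.85, 12.83 and 12.80 without and 13.04, 13.17 and 13.09 with estradiol, a difference of 0.27 ± 0.05 (1.21-fold). Neither pair of groups overlapped.

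Ciita was dim on all 12 arrays by both of its probe sets. The brighter read 5.91, 5.83 and 5.77 without and 5.37, 5.74 and 5.71 with estradiol, a difference of -0.23 ± 0.11. The other read 5.45, 5.37 and 5.49 against 5.02, 5.39 and 5.03, a difference of -0.29 ± 0.11, and those groups overlapped. Both probe sets were dim in every group, so no level or change of Ciita is read from these values.

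Cd80, a ligand of CD28 and CTLA-4, was higher with estradiol on 3 of its 4 probe sets. The brightest measured 9.28, 9.43 and 9.38 without and 10.23, 9.90 and 10.13 with estradiol, a difference of 0.72 ± 0.09 (1.65-fold). A further 2 gave 0.90 ± 0.12, from 7.17, 7.39 and 7.53 to 8.27, 8.41 and 8.10, and 0.64 ± 0.16, from 7.90, 8.0 and 8.09 to 8.70, 8.28 and 8.93. None of the 3 overlapped between groups, and the last was 0.82 without estradiol replicate 2. The remaining Cd80 probe set was dim on all 12 arrays. Cd86, the related ligand, was dim on every RAW264.7 array, with 4.73, 5.25 and 4.93 without and 5.66, 5.47 and 5.44 with estradiol (0.55 ± 0.14). Its other probe set gave 0.48 ± 0.15, and 0.16 with array weights. Both pairs of groups stood apart, at a dim signal.

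Counted by probe set, 12 of the 19 passed limma's test (adjusted p under 0.05) in the estradiol comparison, 4 higher and 8 lower, where 9.67% of all probe sets passed, 5.43% higher and 4.24% lower. Groups stood apart for 7 members higher and 9 lower, against 17.8% and 15.6% of all probe sets. Nothing is read from these counts, since this comparison was in view when the genes were chosen. By role, the median difference was -1.17 over 9 peptide-binding, 0.42 over 2 loading and 0.60 over 6 costimulation probe sets, beside 0.01 over all probe sets. Several of these probe sets measure the same gene. The costimulation median was 0.68 over 4 Cd80 probe sets, 1 of them dim throughout, and 0.51 over 2 Cd86 probe sets, both dim in RAW264.7. Dendritic cells carry much class II. The summed intensity of 9 of their markers was 625 to 643 on the unstimulated and 833 to 980 on the estradiol arrays, with 1 and 2 of 9 above the 40th percentile. In mean, 7 were higher with estradiol and 2 lower. Fscn1 averaged 8.01 and 8.71, while its other probe sets differed by 0.01 to 0.12. Zbtb46 averaged 6.24 and 7.33, and its other probe sets differed by -0.32 and 0.75. Flt3 was dim in both groups and differed by -0.28. The part of these markers in the result was not tested.

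**Figure D1:**
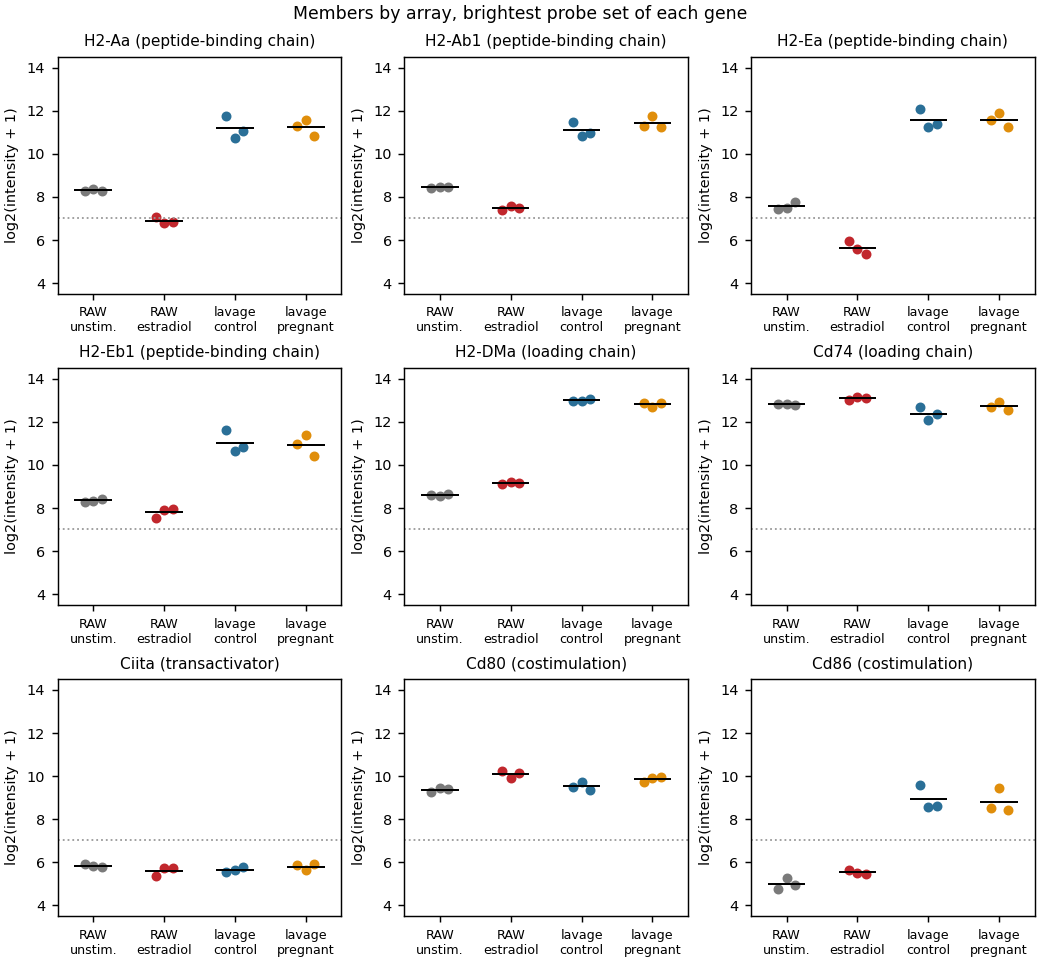
Log2(intensity + 1) on each of the 12 arrays for the brightest probe set of each of the 9 genes; points are arrays, bars are group means (n = 3) and the dotted line is the mean 40th percentile of the arrays. H2-Aa, H2-Ab1, H2-Ea and H2-Eb1 were lower in estradiol-treated than in unstimulated RAW264.7 cells and highest in lavage, H2-DMa and Cd74 were slightly higher with estradiol, and Ciita stayed under the dotted line in all groups.

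In lavage cells of pregnant mice none of the 19 member probe sets differed from control mice by limma's test, and the 2 groups overlapped for every probe set of the peptide-binding chains. H2-Aa measured 11.76, 10.75 and 11.08 in controls and 11.29, 11.58 and 10.83 in pregnant mice. The groups overlapped throughout, and the difference was 0.04 ± 0.29 (95% interval -0.66 to 0.73, limma adjusted p = 0.979). The interval leaves out a 2-fold change in either direction.

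H2-Ab1 measured 11.50, 10.84 and 10.97 in controls and 11.32, 11.75 and 11.23 in pregnant mice, a difference of 0.33 ± 0.21 (interval -0.17 to 0.83, limma adjusted p = 0.648). Its other probe sets gave 0.32 and 0.37, so all 3 leaned upward without passing the test. H2-Ea measured 12.07, 11.26 and 11.39 against 11.59, 11.89 and 11.24, a difference of 0.00 ± 0.25 (-0.59 to 0.60). H2-Eb1 measured 11.61, 10.65 and 10.82 against 10.97, 11.39 and 10.43, a difference of -0.10 ± 0.32 (-0.86 to 0.66). Control replicate 1 was the highest control in all 4 genes, and pregnant replicate 2 the highest pregnant array.

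H2-DMa, steady within groups, measured 12.99, 12.97 and 13.08 in controls and 12.90, 12.71 and 12.86 in pregnant mice. Every pregnant array was below every control array, by a mean of -0.19 ± 0.08 (-0.37 to -0.01), and the limma adjusted p was 0.502. Cd74 measured 12.72, 12.09 and 12.35 against 12.69, 12.92 and 12.57, a difference of 0.34 ± 0.17 (-0.07 to 0.75, limma adjusted p = 0.575). Ciita stayed dim, with differences of 0.14 ± 0.10 and 0.05 ± 0.15.

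Cd80 measured 9.48, 9.75 and 9.34 in controls and 9.73, 9.89 and 9.93 in pregnant mice, a difference of 0.33 ± 0.12 (0.05 to 0.61) with a limma adjusted p of 0.475 and overlapping groups. Its other probe sets above the 40th percentile gave 0.17 and 0.08. Cd86 measured 9.58, 8.56 and 8.61 against 8.5, 9.45 and 8.44, a difference of -0.12 ± 0.37 (-1.0 to 0.76), so a change of up to 2-fold lower lies within its interval.

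No member was called with pregnancy (0 of 19), and neither was any probe set of the array (0 of 20380, or 0%). At an unadjusted p under 0.05, 2 members (H2-DMa and Cd80) and 1992 of 20380 probe sets (9.77%) passed. Groups stood apart for 1 member, H2-DMa, which was lower, against 6.66% of all probe sets lower and apart. The median difference of the members was 0.04, with 12 above and 7 below 0, beside 0.02 for all probe sets. Whether the estradiol change of a member differs from its pregnancy change was not tested, because the former was in view when members were chosen.

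**Figure D2:**
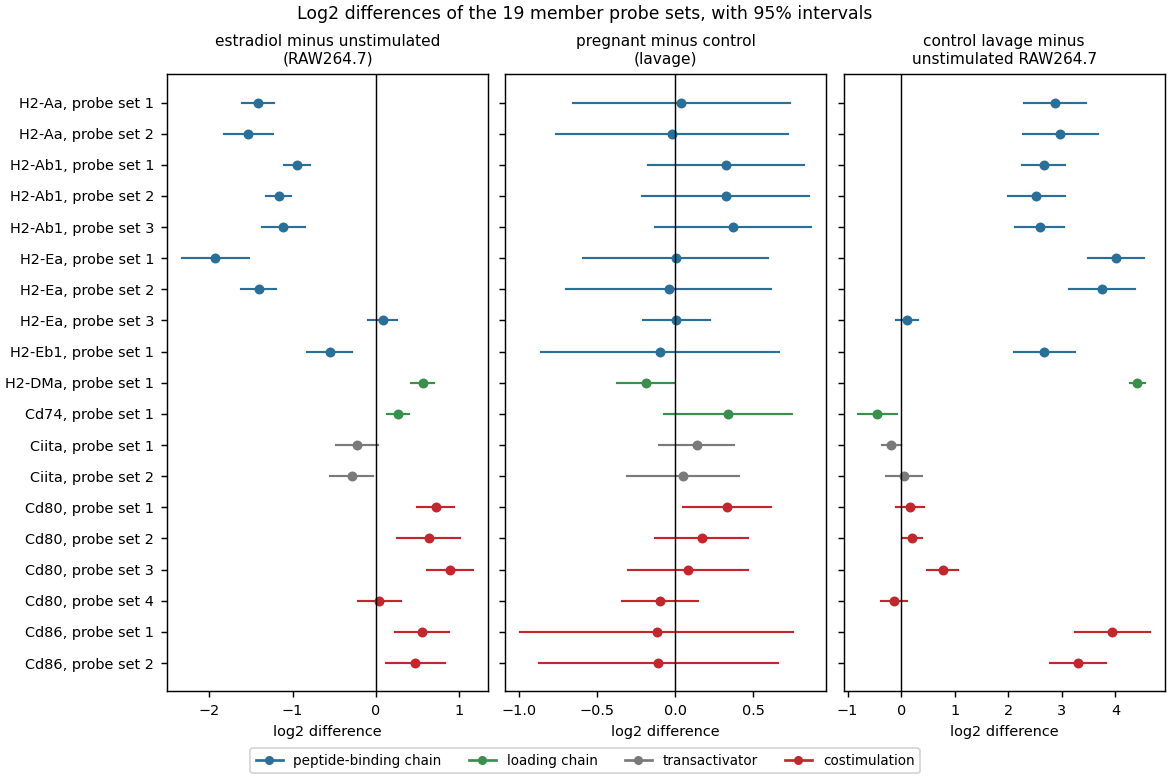
Log2 differences of the 19 member probe sets with 95% intervals (points and bars, n = 3 per group), coloured by role, for estradiol against unstimulated RAW264.7, pregnant against control lavage, and control lavage against unstimulated RAW264.7; each panel has its own axis. With estradiol 8 of 9 peptide-binding probe sets lay below 0 and the loading chains above it, the pregnancy intervals of the peptide-binding chains spanned 0, and 8 of 9 peptide-binding probe sets were far above 0 in lavage. No test is read from the estradiol intervals, since that comparison was in view when the genes were chosen.

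Class II chains were uneven between lavage arrays. Over their 8 probe sets that were not dim throughout, the median SD within a group was 0.49 in controls and 0.28 in pregnant mice, where the median over all probe sets was 0.10 and 0.11. In RAW264.7 cells it was 0.06 in the unstimulated group, equal to the 0.06 of all probe sets, and 0.18 with estradiol against 0.10. Set against the mean of the 6 lavage arrays, the 8 probe sets averaged 0.48 on control replicate 1, -0.44 on control replicate 2, -0.21 on control replicate 3, 0.06 on pregnant replicate 1, 0.33 on pregnant replicate 2 and -0.22 on pregnant replicate 3. Control replicate 1 was the highest array in 6 of 8 and control replicate 2 the lowest in 6 of 8. Cd86 followed the same arrays, at 0.66 on control replicate 1 and 0.56 on pregnant replicate 2. Pregnant replicate 2 also had the largest 3′ to 5′ differences of the lavage arrays, with actin at 0.39, where the other lavage arrays had 0.26 to 0.35, and transferrin receptor at 3.86, where they had 2.83 to 3.47. Control replicate 1 had 0.26 and 3.21. The part of RNA quality in the spread was not tested.

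Markers of other cells moved over these same arrays. The 9 dendritic cell markers averaged 0.66 on control replicate 1, where 6 of 9 were highest. They averaged 0.22 on pregnant replicate 2, where 1 of 9 was highest, and between -0.49 and 0.03 on the other 4 arrays. Ccr7, the homing receptor of migrating dendritic cells, measured 9.93, 8.56 and 8.57 in controls and 7.4, 9.03 and 7.33 in pregnant mice. Ccl22, a chemokine they make, measured 9.63, 8.66 and 8.45 against 7.78, 8.79 and 7.75. Zbtb46 measured 8.77, 8.42 and 8.10 against 8.24, 8.22 and 7.68, and Batf3 8.18, 7.97 and 7.82 against 8.05, 8.38 and 8.32. In mean, 7 of the 9 markers were lower in pregnant mice and 2 were higher. The summed intensity of the dendritic markers ranged from 3588 to 6539 in controls and from 2142 to 4975 in pregnant mice, with 5 to 7 and 5 to 6 of 9 above the 40th percentile, while Flt3 and Xcr1 were dim in both. Epithelial markers, 7 in all, averaged 0.31 on control replicate 1, -0.63 on control replicate 2 and 0.60 on pregnant replicate 2, and their sum ran from 13462 to 21722 in controls and from 15025 to 23772 in pregnant mice.

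The 8 alveolar macrophage markers averaged within 0.09 of 0 on every lavage array, and their sums were 72728 to 78458 in controls and 73796 to 77112 in pregnant mice. T cell markers averaged 0.58 and 0.53 on control replicates 1 and 2 and between -0.40 and -0.06 on the others; Cd3e averaged 7.61 in controls and 6.53 in pregnant mice. Of 8 B cell markers only Cd22 was above the 40th percentile, and Cd79a averaged 5.54 and 5.60, which is dim. The part of these other cells in the spread of the class II chains was not tested. In bulk samples, fewer cells of a type and less RNA per cell cannot be told apart. Without control replicate 1 the pregnancy difference of H2-Eb1 was 0.19, of Cd86 0.21 and of the second H2-Aa probe set 0.33, against -0.10, -0.12 and -0.02 with it.

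**Figure D3:**
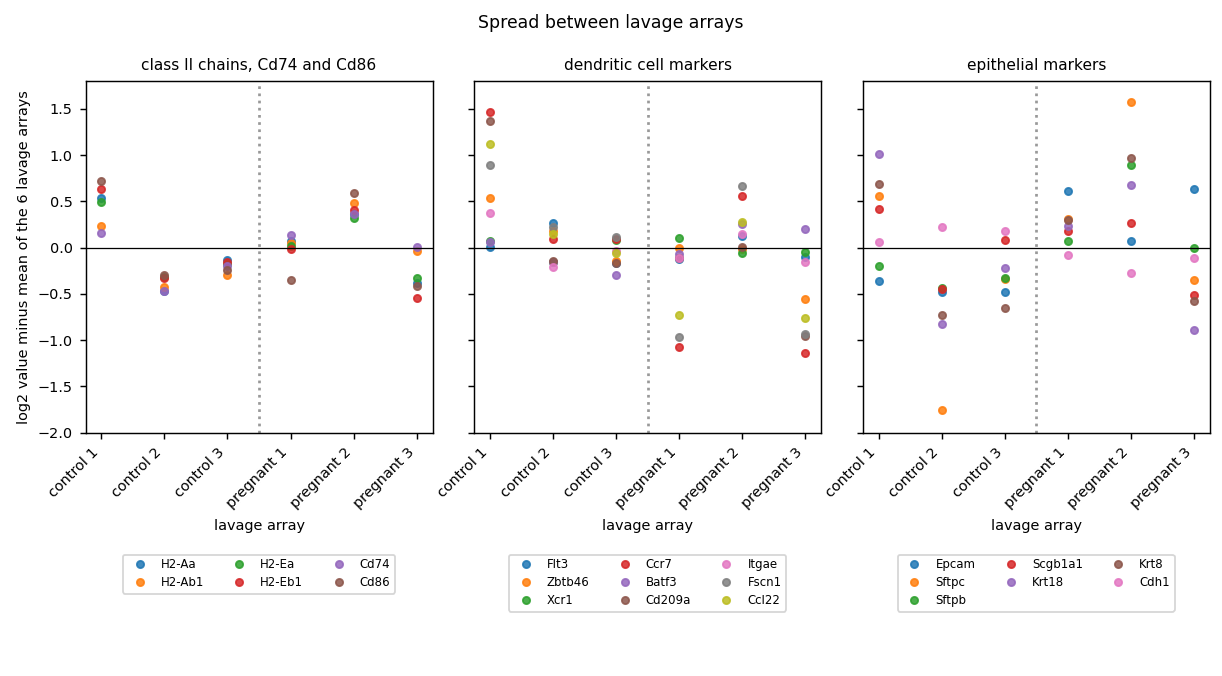
Log2 value minus the mean of the 6 lavage arrays, for each array (x axis, 3 control and 3 pregnant, split by the dotted line), of the brightest probe sets of 4 class II chains, Cd74 and Cd86, of 9 dendritic cell markers and of 7 epithelial markers; each point is 1 gene on 1 array. Control replicate 1 and pregnant replicate 2 sit above 0 for the chains, and several dendritic cell markers sit high on the same arrays.

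The 4 peptide-binding chains, H2-DMa and Cd86 were far higher in control lavage cells than in the cell line, whereas Cd74 was slightly lower and Ciita was dim in both. This comparison sets the starting cells of the 2 treatments side by side. Tissue and culture differ together in it and strain may as well, so their parts cannot be told apart. The strain of the lavage mice is not given, and the match of the probe sequences to either source was not examined. The comparison shares the unstimulated arrays with the estradiol comparison. Control lavage minus unstimulated RAW264.7, H2-Ea was higher by 4.01 ± 0.22 (16.1-fold, limma adjusted p = 8.7e-06) and by 3.75 on its second probe set (13.5-fold). H2-Aa was higher by 2.88 ± 0.24 (7.36-fold, limma adjusted p = 6.5e-05), H2-Ab1 by 2.66 ± 0.17 (6.31-fold, 1.66e-05) and H2-Eb1 by 2.68 ± 0.24 (6.39-fold, 9.26e-05). For these 4 chains the order of group means was estradiol, unstimulated, then the lavage groups, and the 2 lavage groups could not be ordered because they overlapped.

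The loading chains split. H2-DMa was higher in lavage by 4.40 ± 0.06 (21.2-fold, limma adjusted p = 2.59e-08), the largest difference among the members. Cd74 was lower by -0.44 ± 0.15 (1.36-fold lower, limma adjusted p = 0.0388), and that call was lost without any 1 of 5 arrays (the 3 unstimulated and control replicates 2 and 3), with adjusted p from 0.0685 (without control replicate 2) to 0.0984 (without unstimulated replicate 1). Without control replicate 2 the difference was -0.29. The call was also lost with a common median (0.0524) and a robust prior (0.0515). In group means Cd74 ran from 12.39 in control lavage through 12.73 in pregnant lavage and 12.83 in unstimulated RAW264.7 to 13.10 with estradiol. Pregnant lavage overlapped both of its neighbours in that order, and only the estradiol group stood above all other arrays. By brightest probe set, the estradiol group had the lowest mean for each peptide-binding chain and the highest for Cd74. That order is a description, since the estradiol values were in view when the members were chosen.

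Ciita did not pass the test between sources, at -0.19 ± 0.07 (limma adjusted p = 0.0648) and 0.05 ± 0.14 (0.763), and it was dim in lavage as well. The brighter probe set did pass after quantile normalization (-0.26, limma adjusted p = 0.0265) and without control replicate 3 (-0.25, 0.0245). The other passed without control replicate 2 (0.21, limma adjusted p = 0.0498). Cd86 was higher in lavage by 3.94 ± 0.29 (limma adjusted p = 3.7e-05) and by 3.30 ± 0.22 (2.16e-05) on its other probe set. It lay above the 40th percentile on all 6 lavage arrays and on none of the RAW264.7 arrays. The brightest Cd80 probe set differed by 0.16 ± 0.11 (limma adjusted p = 0.242, not called). Another, at 0.78 ± 0.12 (1.71-fold, limma adjusted p = 0.0014), was called, so the Cd80 probe sets disagreed. The remaining one above the 40th percentile gave 0.20 ± 0.07 (limma adjusted p = 0.0498), a call that was lost without any 1 of 5 arrays (unstimulated replicates 1 and 2 and the 3 controls; up to 0.150) and under 5 other settings (up to 0.275).

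A total of 14 of 19 member probe sets were called between sources, 13 higher and 1 lower in lavage, where 62.3% of all probe sets were called, 26.9% higher and 35.4% lower. The median member difference was 2.58, beside -0.08 over all probe sets. By role, 8 of 9 peptide-binding, 1 of 2 loading and 4 of 6 costimulation probe sets were higher. In the same arrays the sum of 9 dendritic cell markers was 625 to 643 in unstimulated RAW264.7 and 3588 to 6539 in control lavage, and that of 8 alveolar macrophage markers 3738 to 3891 and 72728 to 78458. The part of these markers in the result was not tested.

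Other genes of the pathway were listed with earlier results of these data known, and 48 of 56 were measured. The adjusted p-values printed for them with estradiol therefore mark calls of the fit and are no independent test. Each is represented by its brightest probe set. With estradiol 6 were called higher and 6 lower, where 5.92% of 12393 genes were called higher and 4.09% lower; the median difference was 0.03 beside 0.02 for all genes. Of the 20 genes of the promoter complex and its inputs, 3 were lower and 0 higher. Irf4, an interferon regulatory factor of B cells and some myeloid cells, measured 8.83, 8.97 and 8.71 without and 8.30, 8.03 and 8.20 with estradiol, a difference of -0.66 ± 0.10 (limma adjusted p = 0.00894). Its other probe set gave -0.38. Rfxank, a subunit of the RFX complex on the X box, fell by 0.43 ± 0.09 (limma adjusted p = 0.0287) on its brightest probe set, while another of its probe sets gave 0.01. That call was lost without estradiol replicate 3 (0.0620) or without any unstimulated array (up to 0.117). Prdm1, which encodes Blimp1, a repressor of Ciita, fell by 0.36 ± 0.09 (limma adjusted p = 0.0477), a call that was lost without any 1 of the 6 arrays (up to 0.137), after quantile normalization (0.0646), with a common median (0.0648) and with a robust prior (0.0505).

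The other RFX subunits did not pass the test: Rfx5 differed by 0.19 ± 0.06 and Rfxap by 0.16 ± 0.06. Nfya, of the Y-box factor NF-Y, differed by 0.00 on its brightest probe set and by -0.28 and -0.27 on its others. Nfyb, of the same factor, differed by 0.01, and its other probe set gave -0.34. Creb1 differed by -0.02, and its other probe sets by -0.38 to -0.11. Irf1 differed by 0.00, Irf8 by 0.05 and Ifngr1, a chain of the interferon-gamma receptor, by -0.01. None of these genes was called by its brightest probe set. Of 10 loading and processing genes 1 rose, Ctsh, an aminopeptidase of the lysosome, by 1.31 ± 0.20 (limma adjusted p = 0.0103). Ctsh measured 4.62, 5.28 and 4.64 without and 6.33, 5.92 and 6.21 with estradiol, which is dim in both groups. Ctss, the cathepsin that trims the invariant chain, differed by 0.00 ± 0.05, and H2-DMb2, a beta chain of H2-DM, by 0.12 ± 0.10 and was dim in RAW264.7.

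Among 15 other costimulatory and coinhibitory genes 4 rose and 3 fell with estradiol. Cd40, the receptor through which T cells license presenting cells, measured 6.93, 6.71 and 6.96 without and 8.11, 8.13 and 8.01 with estradiol. The unstimulated arrays were dim. Its rise was 1.22 ± 0.08 (limma adjusted p = 0.000469), and its other probe set gave 1.42. Tnfsf9, the ligand of 4-1BB, rose from 11.73, 11.79 and 11.79 to 12.52, 12.48 and 12.49, by 0.73 ± 0.05 (1.66-fold, limma adjusted p = 0.000456). Icosl, the ligand of ICOS, rose by 0.65 ± 0.13 (limma adjusted p = 0.0241) at a dim level, and its other probe set gave 0.26. That call was lost without unstimulated replicate 2 (0.102), unstimulated replicate 3 (0.100) or estradiol replicate 3 (0.0854). Icam1, an adhesion ligand, rose by 0.57 ± 0.07 and is named here because it completes the count. Havcr2, which encodes Tim-3, fell by 0.65 ± 0.07 (limma adjusted p = 0.0033), and the other 2 that fell were Cd48 (-0.60 ± 0.05) and Vsir (-0.34 ± 0.08). Of 3 genes of turnover and other chains, Il10ra, a chain of the interleukin-10 receptor, rose by 0.74 ± 0.12 (limma adjusted p = 0.0138), with its other 2 probe sets down to -0.08. Its call was lost without unstimulated replicate 2 (0.0573) or 3 (0.0539).

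**Figure D4:**
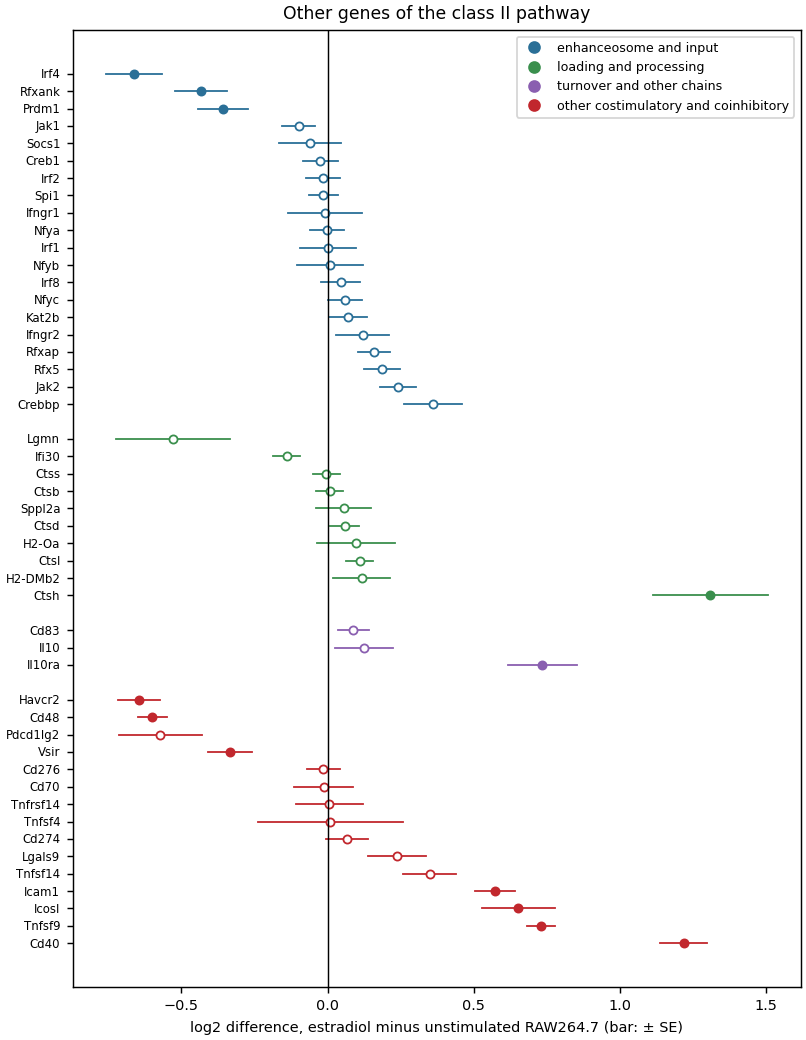
Log2 difference between estradiol-treated and unstimulated RAW264.7 cells (points, bars ± SE, n = 3 per group) for 48 other genes of the class II pathway, grouped by role from top to bottom; filled points passed limma's test at an adjusted p under 0.05. Cd40 and Ctsh lie farthest to the right, past 1.2, and Irf4 farthest to the left at -0.66.

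With pregnancy 0 of the 48 pathway genes were called by limma, and 5 had an unadjusted p under 0.05, as had 1113 of all 12393 genes. The median difference was -0.07 beside 0.03 for all genes, with 38 of 48 below 0 beside 4898 of 12393. Irf4 measured 10.79, 10.50 and 10.37 in controls and 9.76, 9.89 and 9.27 in pregnant mice, a difference of -0.91 ± 0.18 with groups apart and a limma adjusted p of 0.405. Its other probe set gave -0.24. H2-DMb2, the partner of H2-DMa, differed by -0.40 ± 0.10 with groups apart (limma adjusted p = 0.424). Irf1 differed by -0.32 ± 0.06, again with groups apart and an adjusted p of 0.397.

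Between sources 28 of the 48 were higher in lavage and 9 lower, where 27.8% of genes were called higher and 33.8% lower. H2-DMb2 was higher by 3.36 ± 0.11 (limma adjusted p = 8.75e-07), beside the 4.40 of H2-DMa. Ctsh was higher by 8.21 ± 0.18 (limma adjusted p = 1.46e-07), and both were dim in RAW264.7. Prdm1 was higher by 2.83 ± 0.08, Irf4 by 1.72 ± 0.12 and Irf1 by 1.70 ± 0.06, while Rfx5 did not pass (-0.23 ± 0.10). The other Irf4 probe set gave -0.07, so the Irf4 probe sets disagreed. Of the costimulatory genes Icosl was higher by 6.27 ± 0.11 from a dim level and Cd48 by 3.48 ± 0.06, and Tnfsf9 was lower by -5.40 ± 0.21 and dim in lavage. The other Icosl probe set gave 0.32.

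Likeness to H2-Aa was measured as Pearson's r of log2 values over the 12 arrays, a description whose points share 2 sources and are dominated by them. The 5 genes most like it were H2-Ea (0.997), Casp1 (0.994), H2-Ab1 (0.993), Psmb10 (0.992) and Gstm1 (0.991). Casp1 encodes the inflammasome protease caspase-1 and Psmb10 an immunoproteasome subunit. Of the other members H2-Eb1 reached 0.984, Cd86 0.926, H2-DMa 0.920, Ciita 0.078, Cd80 -0.286 and Cd74 -0.674. Casp1 averaged 12.45 in unstimulated, 12.24 in estradiol-treated RAW264.7, 12.85 in control and 12.89 in pregnant lavage, a far smaller range than that of H2-Aa. The genes most like Ciita (Il31ra at 0.880, Kcns1 at 0.860, Mnt at 0.825, Hrh2 at 0.820 and Syt4 at 0.807) were named by the same measure, and Ciita itself was dim on all arrays.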

How the data were processed

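RNA of 12 samples (4 groups of 3) was hybridised to Affymetrix arrays. The authors deposited 1 linear intensity per probe set, made with RMA (version not stated) per the submitters' processing notes. RMA normally gives log2, so log2(intensity + 1) was taken here, and folds of dim genes are slightly understated. Names come from the platform annotation: of 22690 probe sets 20380 had 1 symbol, 691 several and 1555 none, and 64 controls were left out. Promoter windows are RefSeq's.

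Groups follow the labels; replicates are numbered in deposit order. No arrays were identical, and r within groups was 0.995 to 0.999. Each comparison was fitted with limma 3.58.1 (R 4.3.3, lmFit, eBayes, two-sided) on its 6 arrays, adjusted by Benjamini-Hochberg over 20380 probe sets and tested on simulated data. Of several probe sets, the one with the highest mean represented a gene in lists. Scripts used Python 3.11.15, pandas 2.3.3, numpy 2.4.6, matplotlib 3.10.9 and the data.table package (1.17.8).

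The members and lists were chosen with earlier results of these data known. Members are named throughout. Of pathway genes, up to 4 called per list with the largest absolute difference were named in the estradiol comparison. Between sources only some of the genes meeting that rule were named. Others named were chosen after their values were seen. Alternatives were quantile normalization, a common median, a filter on dim probe sets, 1 probe set per gene, a robust prior, array weights, all 12 arrays in 1 fit, no pseudocount, an adjusted p of 0.01, and each array left out in turn.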

Additional observations from a re-analysis of the deposited data

Results flagged for a closer look

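H2-DMa and Crebbp, a coactivator at class II promoters, each moved in opposite directions under the 2 treatments, with every estradiol array above the unstimulated ones and every pregnant array below the controls. For H2-DMa the estradiol difference was 0.56 and the pregnancy difference -0.19, which lie -0.75 apart. For Crebbp they were 0.36 and -0.18, which lie -0.54 apart. These came from a search of the 19 member probe sets and 48 pathway genes for opposite movement with groups apart. Of all probe sets, 17.8% were higher and apart with estradiol and 6.66% lower and apart with pregnancy. The share of all probe sets doing both was not computed, so nothing is read from finding these. The difference was not tested, and neither gene was called with pregnancy. Crebbp was not called with estradiol either (limma adjusted p = 0.072).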

How the results depend on the processing

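No paired analysis was possible because replicates carry no numbers in the labels. The estradiol count of 1970 probe sets became 7885 with array weights, whose fit gave a convergence warning, 666 at an adjusted p of 0.01, and 750 to 2579 with an array left out. The 12 pathway genes called became 26, 6 and 7 to 12, and the 12 member calls stayed between 8 (of 9, with 1 probe set per gene) and 16. The 0 pregnancy calls became 32 with all 12 arrays in 1 fit and 0 to 1 with an array left out. Source calls became 7671 and member calls 7 with 1 probe set per gene, where fewer were tested. The cause of the other shifts was not tested. Of the estradiol member values, 243 of 249 recomputed values moved by less than 1 SD and 6 moved further, all under array weights, among them a Cd86 probe set (0.48 to 0.16). Pregnancy differences near 0 changed sign: the second H2-Aa probe set gave 0.012 with a common median and 0.10 with array weights, which also gave 0.019 and -0.027 for the second and the dimmest H2-Ea probe sets. With an array left out, H2-Aa ran from -0.19 to 0.32 and from -0.29 to 0.33, H2-Ea from -0.16 to 0.25, from -0.23 to 0.26 and from -0.077 to 0.053, H2-Eb1 from -0.33 to 0.19, Cd86 from -0.45 to 0.21 and from -0.40 to 0.16, the second Ciita probe set from -0.11 to 0.16 and a Cd80 probe set from -0.085 to 0.18. Between sources the second Ciita probe set gave -0.015 after quantile normalization and -0.064 to 0.21 with an array left out. The number of arrays and the dim signal of Ciita and of Cd86 in RAW264.7 limit these values.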
